A study of Mus musculus with 18 samples.

Results

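T cells of uninduced pMT-10 mice were compared with T cells of zinc-fed C57BL/6 mice, separately for CD4 and CD8 cells that had been sorted from bone marrow. Members were chosen by the sample labels, which put 12 of the 18 libraries of the study in these control groups. The pMT-10 control groups held 3 CD4 and 3 CD8 libraries from mice of the pMT-10 strain that drank plain control water for 30 days. The C57BL/6 groups held 3 CD4 and 3 CD8 libraries from C57BL/6 mice that drank zinc-enriched water for 30 days. A further 6 libraries, from pMT-10 mice on the same zinc water, are set beside them where they bear on a gene. The pMT-10 strain carries an extra Il10 gene under a metallothionein promoter, the promoter of a metal-responsive gene, so that zinc induces IL-10. The labels do not give the strain on which the transgene is kept, the age of the mice, or which CD4 and CD8 libraries came from the same mouse. Nothing in them says that the 3 libraries of a group came from separate mice, although the series design counts 3 mice of each kind, so p-values measure the spread between these libraries.

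IL-10 is a cytokine that restrains inflammation, and it signals to T cells through the receptor chain Il10ra. T cells in bone marrow include many long-lived memory cells, and some of them carry receptors that are better known from natural killer (NK) cells. A comparison of the controls shows how far the strains differ before the transgene is induced, but strain, zinc and sequencing chip changed together here and cannot be told apart. Zinc-fed pMT-10 shared its chip and its zinc with C57BL/6, and its strain with uninduced pMT-10. Sex changed with them: reads of 4 Y-linked genes summed to 0 in every uninduced pMT-10 library, against 4184 to 5188 counts in C57BL/6 CD4 libraries and 2866 to 4911 counts in C57BL/6 CD8 libraries. Zinc-fed pMT-10 libraries held 0 to 1 such counts in CD4 and 0 to 8 in CD8 cells. On the chip shared with C57BL/6, sex thus changed with strain as well. All results below are therefore given for autosomal genes, and autosomal effects of sex cannot be told apart from the other differences either.

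RNA was read with a targeted panel that amplifies 1 short piece of each of 23930 mouse genes, and 22796 of these lie on autosomes. Total counts of the 12 libraries ran from 10601653 to 18519474. Levels are given in CPM, reads of a gene scaled to a common library size after adjustment by the trimmed mean of M-values (TMM). The amplicons were not mapped, so levels are compared between groups for a gene and not between genes. The sort markers matched their labels: Cd4, the coreceptor of helper T cells, averaged 1711 ± 53 CPM in pMT-10 CD4 cells and 2191 ± 109 CPM in C57BL/6 CD4 cells (SD, n = 3 each), and stayed below 5.6 CPM in every CD8 library of both groups. Cd8a, the coreceptor of killer T cells, averaged 2012 ± 174 CPM in pMT-10 CD8 cells and 2412 ± 153 CPM in C57BL/6 CD8 cells, against at most 10.03 CPM in the CD4 libraries. Exact two-sided permutation tests gave p = 0.1 for both coreceptors in their own cells, the smallest value that 3 against 3 allows, and neither was called. One library stood apart: C57BL/6 CD4 replicate 3 held 40.1 CPM of Xist, an RNA of the inactive X chromosome, against 0.456 and 7.49 CPM in the other two, and it had the highest Ifng and Gzmb levels of its group. Several results that lean on it, though not all, are given with and without it.

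The transgene and the metal response were checked first. Il10 had 3.10, 3.63 and 1.40 CPM in uninduced pMT-10 CD4 cells, 26.0, 16.6 and 20.9 CPM in zinc-fed pMT-10 CD4 cells, and 7.14, 3.01 and 8.25 CPM in C57BL/6 CD4 cells. The control groups overlapped, and Il10 was not higher in pMT-10 cells without zinc (log2 fold change -1.17, SE 0.57; exact permutation p = 0.3). In CD8 cells Il10 had 0 counts in all 6 control libraries, which allows at most 0.0676 CPM in pooled pMT-10 and 0.0804 CPM in pooled C57BL/6 libraries. Il10ra averaged 302 ± 12 CPM in pMT-10 and 363 ± 51 CPM in C57BL/6 CD4 cells, a difference that did not pass the test (edgeR adjusted p = 1). Mt1, a metallothionein that binds zinc, had 0.258, 1.39 and 0.70 CPM in uninduced pMT-10 CD4 cells, 8.42, 11.3 and 12.9 CPM in zinc-fed pMT-10 CD4 cells, and 4.64, 5.56 and 3.06 CPM in C57BL/6 CD4 cells. The 3 pMT-10 libraries without zinc lay below all 3 of C57BL/6 (log2 fold change -2.47, SE 0.71), but the difference did not pass the adjustment (edgeR adjusted p = 0.494; exact permutation p = 0.1). In CD8 cells Mt1 averaged 0.28 ± 0.44 CPM in pMT-10 and 0.40 ± 0.20 CPM in C57BL/6, and the groups overlapped (exact permutation p = 0.8).

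A promoter window of Mt1 is shown because a promoter of this family drives the transgene. It holds matches to the metal response element, the sequence through which metals act on such genes. The window runs from 250 bases before to 30 bases after a transcript start of RefSeq (GRCm38.p6, chr8:94178839-94179118, plus strand). Capitals mark matches to the metal response element, searched as TGCACNC and TGCGCNC on both strands.

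Mt1: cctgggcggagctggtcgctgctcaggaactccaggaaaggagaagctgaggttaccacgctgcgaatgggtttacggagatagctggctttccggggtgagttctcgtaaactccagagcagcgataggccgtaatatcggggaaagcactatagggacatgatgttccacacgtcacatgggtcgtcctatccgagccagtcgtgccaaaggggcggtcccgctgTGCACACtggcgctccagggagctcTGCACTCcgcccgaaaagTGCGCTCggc

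It holds 3 matches, at bases -23 to -17, 3 to 9 and 21 to 27 from that start. The first lies before the start and the others after it. Bases beyond the window were not searched, and which elements act on Mt1 was not tested. Of all 32851 promoter windows of this length, 24.1% hold at least 1 match. Of the 21 autosomal zinc-response genes on the panel, which cover metallothioneins, zinc transporters and targets of the metal sensor Mtf1, 16 had a promoter in the table. Of these genes, 8 held a match in at least 1 window, a share of genes and not of windows. None of the 21 was called in either cell type by edgeR or by DESeq2. At an unadjusted p under 0.05, only Mt1 was lower in pMT-10 CD4 cells and only Slc30a4, a zinc exporter, was higher in pMT-10 CD8 cells. Slc30a4 had 24.8, 34.5 and 39.5 CPM in pMT-10 CD8 cells, against 15.2, 19.5 and 24.03 CPM in C57BL/6 CD8 cells (log2 fold change 0.75, SE 0.24, edgeR adjusted p = 0.515). Slc30a1, the zinc exporter most closely tied to the metal sensor, stayed at or below 2.01 CPM in all 12 libraries. The median log2 fold change of the list was 0.128 in CD4 and -0.06 in CD8 cells, beside 0.00259 and 0 over all autosomal genes tested.

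Few genes separated the control groups. Of 10891 autosomal genes tested, 10 were called in CD4 cells (0.0918%), 7 higher (0.0643%) and 3 lower (0.0275%) in pMT-10, and 6 were called in CD8 cells (0.0551%), 2 higher (0.0184%) and 4 lower (0.0367%). A gene was called when the adjusted p of edgeR's quasi-likelihood test was under 0.05. For scale, zinc-fed pMT-10 CD4 cells gave 2059 calls (18.9%) against zinc-fed C57BL/6 and 2073 calls (19%) against uninduced pMT-10, comparisons that share their control libraries with the present one, and in CD8 cells the counts were 970 (8.91%) and 859 (7.89%). Before adjustment, 480 autosomal genes (4.41%) had a p under 0.05 in CD4 cells and 680 (6.24%) in CD8 cells. For the 8408 genes with a mean of at least 5 CPM in 1 of the CD4 groups, the 95% interval of the fold change stayed within 2-fold either way for 87.1%, and this held for 88.2% of the 8154 such genes in CD8 cells. Log2 CPM correlated across genes, which are not independent replicates, at r of 0.958 to 0.968 between pMT-10 and C57BL/6 CD4 libraries, beside 0.971 to 0.976 among the pMT-10 and 0.958 to 0.961 among the C57BL/6 libraries.

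**Figure D1:**
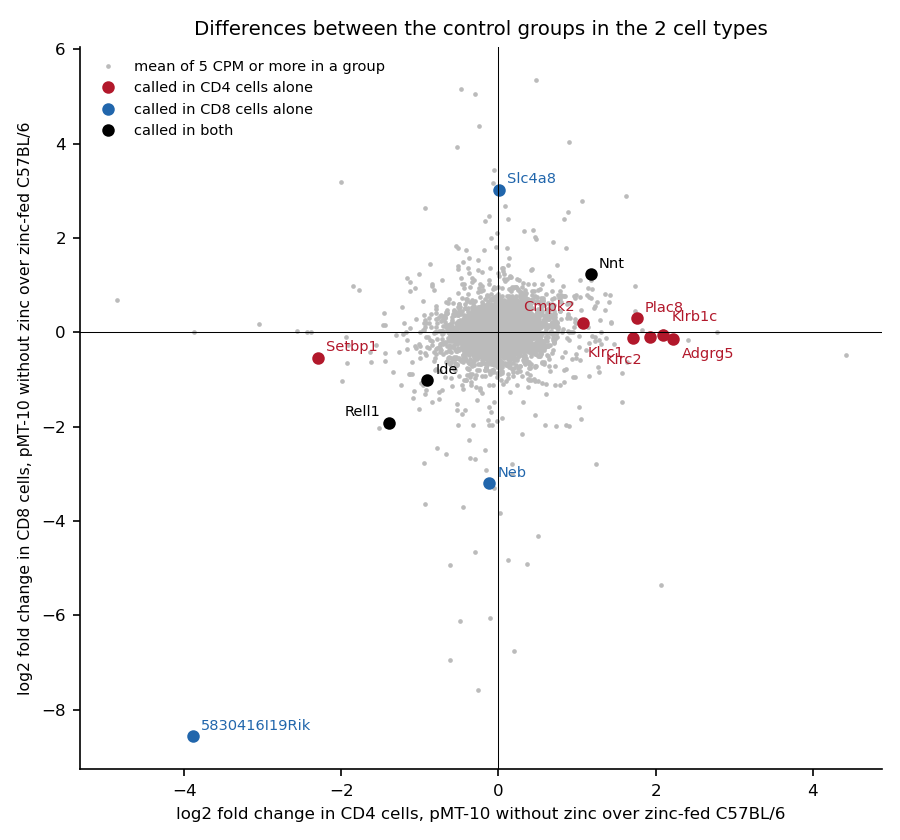
Fitted log2 fold change of each autosomal gene between uninduced pMT-10 and zinc-fed C57BL/6 cells, in CD4 cells on the horizontal and in CD8 cells on the vertical axis; grey points are 8645 genes with a mean of at least 5 CPM in a group, and coloured points are the called genes. Nnt, Ide and Rell1 were called in both cell types, the NK receptor genes lie along the CD4 axis with CD8 values near 0, and the value of 5830416I19Rik depends on its 0 counts in pMT-10 CD8 cells.

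The genes called in both cell types were Nnt, Ide and Rell1, or 30% of the CD4 calls and 50% of the CD8 calls (3 of 10891 genes, 0.0275%). All kept 1 direction. Nnt, whose protein is a mitochondrial transhydrogenase that supplies NADPH, is widely known for a deletion in the substrain C57BL/6J, although the labels name no substrain. It had 48.2, 46.4 and 48.3 CPM in uninduced pMT-10 CD4 cells, 42.8, 51.1 and 47.7 CPM in zinc-fed pMT-10 CD4 cells, and 27.6, 15.3 and 20.4 CPM in C57BL/6 CD4 cells. In CD8 cells Nnt stood at 36.1, 22.4 and 34.4 CPM in uninduced pMT-10, at 31.4, 26.9 and 33.2 CPM in zinc-fed pMT-10, and at 13.7, 13.7 and 12.5 CPM in C57BL/6. All pMT-10 libraries, with or without zinc, lay above all C57BL/6 libraries of their cell type, and the C57BL/6 libraries still held 493 to 821 Nnt reads per group. Between the control groups the difference was 2.26-fold in CD4 cells (log2 1.17, SE 0.20, edgeR adjusted p = 0.0124) and 2.33-fold in CD8 cells (log2 1.23, SE 0.21, edgeR adjusted p = 0.00935), and the exact permutation test gave p = 0.1 in each. On the chip they shared, zinc-fed pMT-10 exceeded C57BL/6 by 1.16 in CD4 and 1.20 in CD8 cells on the log2 scale. The CD8 effect minus the CD4 effect was 0.05 on the log2 scale, with an interval from -0.545 to 0.647. With 1 of the 6 libraries left out, Nnt passed the threshold in 1 of 6 fits in CD4 cells (adjusted p 0.00343 to 0.121) and in 3 of 6 in CD8 cells (0.00168 to 0.0911), always higher.

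Ide, the gene of insulin-degrading enzyme, is a locus at which copy number is known to vary among C57BL/6J mice. It had 202, 184 and 195 CPM in uninduced pMT-10 CD4 cells, 260, 225 and 265 CPM in zinc-fed pMT-10 CD4 cells, and 404, 355 and 334 CPM in C57BL/6 CD4 cells. In CD8 cells the values were 168, 177 and 133 CPM in uninduced pMT-10, 224, 198 and 236 CPM in zinc-fed pMT-10, and 298, 332 and 333 CPM in C57BL/6. The 3 groups did not overlap in either cell type, and zinc-fed pMT-10 lay between the controls. Ide fell to 53.2% of its C57BL/6 level in pMT-10 CD4 cells (log2 fold change -0.91, SE 0.13, edgeR adjusted p = 0.000995) and to 49.6% in CD8 cells (log2 fold change -1.01, SE 0.13, edgeR adjusted p = 0.000253). Within the shared chip, the log2 fold change of zinc-fed pMT-10 against C57BL/6 was -0.55 in CD4 and -0.55 in CD8 cells. The 2 effects differed by -0.10 on the log2 scale, with an interval from -0.475 to 0.275. Ide (chr19:37268743-37334544, GRCm38) has 8 tested genes within 500 kb, and none of them was called. Nnt (chr13:119335527-119409257) has 6, none called. Its neighbour Paip1, 19 kb away, averaged 143 ± 5.5 CPM in pMT-10 and 141 ± 11 CPM in C57BL/6 CD4 cells. Another neighbour, 3110070M22Rik, 78 kb from Nnt, was lower without overlap in both cell types at very low levels. It had 0.194, 0.267 and 0.0636 CPM in pMT-10 and 1.98, 0.772 and 0.55 CPM in C57BL/6 CD4 cells. It was not called (log2 fold change -2.58 in CD4 and -1.77 in CD8 cells, edgeR adjusted p = 1 and 0.908).

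Rell1, whose product belongs to the RELT family of membrane proteins, had 8.27, 6.72 and 8.34 CPM in uninduced pMT-10 CD4 cells, 8.36, 6.38 and 5.17 CPM in zinc-fed pMT-10 CD4 cells, and 17.9, 20.5 and 22.8 CPM in C57BL/6 CD4 cells. In CD8 cells it had 4.13, 4 and 6.09 CPM in uninduced pMT-10, 4.78, 5.93 and 5.05 CPM in zinc-fed pMT-10, and 13.99, 21.12 and 19.01 CPM in C57BL/6. Again every pMT-10 library lay below every C57BL/6 library, and within the shared chip zinc-fed pMT-10 differed from C57BL/6 by -1.62 in CD4 and -1.78 in CD8 cells (log2). The control groups differed by 2.62-fold in CD4 cells (log2 -1.39, SE 0.26, edgeR adjusted p = 0.0265) and by 3.81-fold in CD8 cells (log2 -1.92, SE 0.27, edgeR adjusted p = 0.000961), and the log2 effects differed between cell types by -0.53 with an interval from -1.29 to 0.239. The CD8 call of Rell1 held whichever library was left out, and the CD4 call in no such fit (edgeR adjusted p 0.0615 to 0.259). Its neighbour 5830416I19Rik lies 76 kb away on the same chromosome (Rell1 at chr5:63889337-63969020, 5830416I19Rik at chr5:64044973-64050226, GRCm38). No role is given here for 5830416I19Rik.

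5830416I19Rik had 0 counts in all 3 uninduced and all 3 zinc-fed pMT-10 CD8 libraries, against 27, 46 and 56 counts in C57BL/6 CD8 libraries. With 3 counts over the group at 0 as the limit, it was at least 51.2-fold lower in uninduced pMT-10 CD8 cells, a bound that ran from 46.2 to 58.9 without 1 C57BL/6 library, and it was called (edgeR adjusted p = 0.0273, or 0.0412 to 0.179 without 1 library). In CD4 cells it had 0.775, 0.0533 and 0.191 CPM in uninduced pMT-10, 0.392, 0.354 and 0 CPM in zinc-fed pMT-10, and 6.23, 4.40 and 4.64 CPM in C57BL/6. The controls did not overlap, but edgeR did not call the difference (log2 fold change -3.89, SE 0.99, edgeR adjusted p = 0.323), although DESeq2 called it (adjusted p = 0.0131). The remaining tested genes within 500 kb were not called. Pgm2, an enzyme of sugar phosphate metabolism, had log2 fold changes of -0.33 in CD4 and 0.15 in CD8 cells. Tbc1d1, a regulator of glucose transporter traffic, had -0.76 and 0.02.

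**Figure D2:**
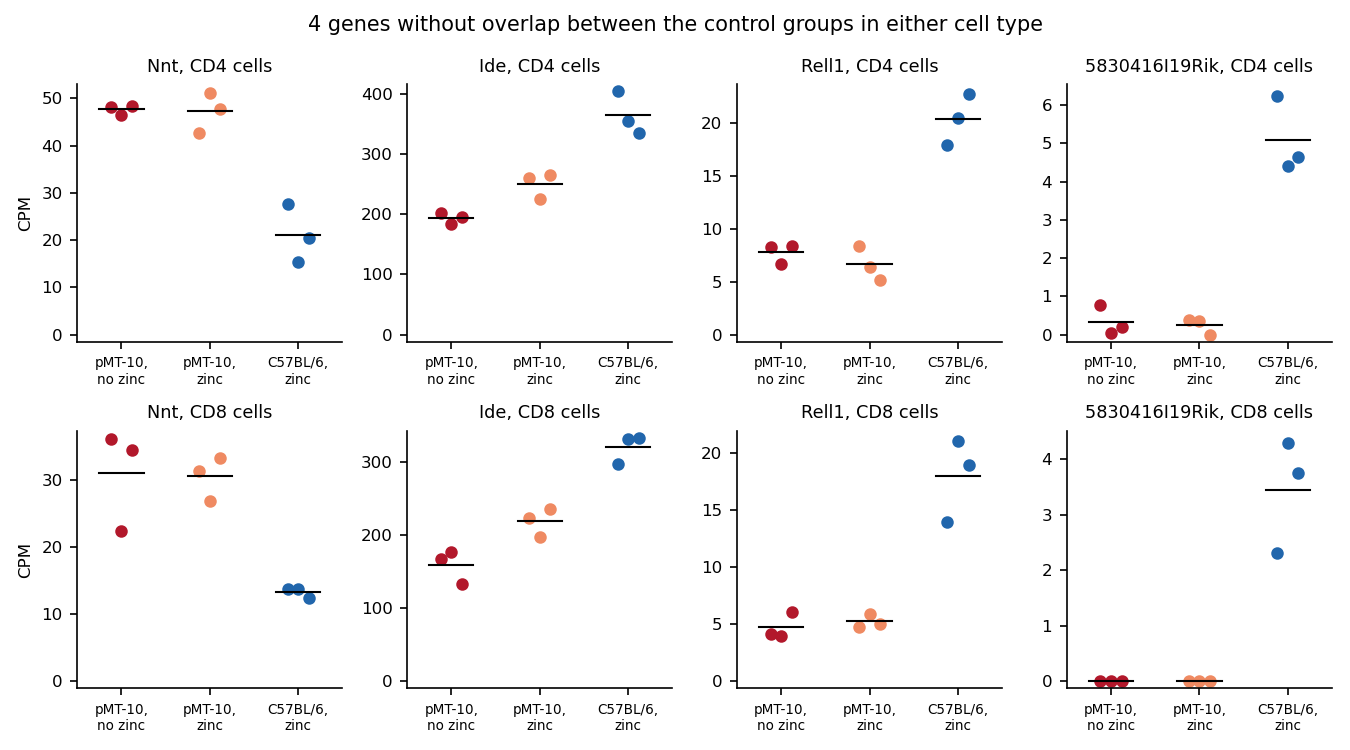
CPM of Nnt, Ide, Rell1 and 5830416I19Rik in each library of uninduced pMT-10, pMT-10 mice on zinc and C57BL/6 mice on zinc, with CD4 cells in the upper and CD8 cells in the lower row; points are libraries and lines are means of 3. Both pMT-10 groups lie on the same side of C57BL/6 in each panel, above it for Nnt and below it for the other genes.

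Differences that ran the same way in both cell types were counted over all autosomal genes tested, called or not. In 102 autosomal genes (0.937%) the control groups did not overlap in either cell type and differed in the same direction, and in 37 (0.34%) they did so in opposite directions. In a single cell type, 1272 genes (11.7%) had no overlap in CD4 cells, 674 of them higher (6.19%) and 598 lower (5.49%) in pMT-10. In CD8 cells there were 973 (8.93%), 488 higher (4.48%) and 485 lower (4.45%). A difference of at least 1.5-fold in both cell types remained for 25 genes (0.23%), 16 higher and 9 lower in pMT-10. These counts include Nnt, Ide, Rell1 and 5830416I19Rik. Among those that edgeR called in neither cell type, and named after their values were seen, was Asic4, a member of the acid-sensing ion channel family. Asic4 had 6.46, 4.37 and 11.3 CPM in pMT-10 and 2.96, 2.39 and 1.81 CPM in C57BL/6 CD4 cells. Asic4 in CD8 cells had 9.37, 4.68 and 10.97 CPM in pMT-10 and 1.03, 1.78 and 0.602 CPM in C57BL/6 (edgeR adjusted p = 0.784 in CD4 and 0.0694 in CD8 cells), and DESeq2 called it in CD8 cells (adjusted p = 0.000382). Zinc-fed pMT-10 cells lay below C57BL/6 in CD4, with 0.0653, 0.797 and 0.15 CPM of Asic4, and above it in CD8, with 6.06, 4.52 and 5.12 CPM. Marveld2, a protein of tricellular tight junctions, averaged 16.7 ± 1.9 CPM in pMT-10 and 7.58 ± 4.43 CPM in C57BL/6 CD4 cells, and 8.71 ± 2.63 CPM in pMT-10 and 4.54 ± 1.63 CPM in C57BL/6 CD8 cells (edgeR adjusted p = 0.767 and 0.685).

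CD4 cells of uninduced pMT-10 mice carried more RNA of NK receptors. Klrb1c, the gene of the NK1.1 antigen, had 163, 184 and 166 CPM in uninduced pMT-10 CD4 cells, 8.55, 14.97 and 4.80 CPM in zinc-fed pMT-10 CD4 cells, and 36.8, 45.8 and 37.2 CPM in C57BL/6 CD4 cells. All groups were apart, with uninduced pMT-10 highest and zinc-fed pMT-10 lowest. Klrb1c rose 4.28-fold between the control groups (log2 2.10, SE 0.41, edgeR adjusted p = 0.0481). Klrc1, the gene of the inhibitory receptor NKG2A, had 26.6, 30.9 and 22.5 CPM in uninduced pMT-10 CD4 cells and 4.71, 12.3 and 7.46 CPM in C57BL/6 CD4 cells, without overlap (3.27-fold, edgeR adjusted p = 0.0292). Klrc2, the gene of its activating relative NKG2C, had 14.3, 21.2 and 11.6 CPM in uninduced pMT-10 and 3.19, 3.94 and 5.19 CPM in C57BL/6 CD4 cells (3.82-fold, edgeR adjusted p = 0.0292). Klrc1 and Klrc2 are close paralogs whose reads the counting could have shared, so their separate values are uncertain. These calls were near the threshold: without 1 library the edgeR adjusted p was 0.115 to 0.29 for Klrb1c, 0.0098 to 0.255 for Klrc1 and 0.0322 to 0.265 for Klrc2, and no direction changed.

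Adgrg5, an adhesion-type receptor coupled to G proteins, gave the smallest p. It had 9.95, 12.9 and 10.6 CPM in uninduced pMT-10 CD4 cells, 3.26, 2.39 and 3.15 CPM in zinc-fed pMT-10 CD4 cells, and 1.06, 3.71 and 2.36 CPM in C57BL/6 CD4 cells, a 4.68-fold rise between the controls (log2 2.23, SE 0.26, edgeR adjusted p = 4.39e-05). Plac8, a small cysteine-rich protein found in many leukocytes, had 31.7, 36.8 and 36.2 CPM in uninduced pMT-10, 11.03, 11.6 and 11.3 CPM in zinc-fed pMT-10, and 6.69, 11.96 and 12.3 CPM in C57BL/6 CD4 cells (3.39-fold, edgeR adjusted p = 0.00241). For both genes the 3 uninduced pMT-10 libraries lay above all the others, while zinc-fed pMT-10 overlapped C57BL/6. Setbp1, a nuclear protein that binds the SET oncoprotein, moved the other way, with 0.581, 1.28 and 1.46 CPM in uninduced pMT-10, 58.6, 41.9 and 48.2 CPM in zinc-fed pMT-10, and 4.94, 5.09 and 6.52 CPM in C57BL/6 CD4 cells (log2 fold change -2.30, SE 0.39, edgeR adjusted p = 0.00932). Adgrg5 and Plac8 were called whichever library was left out, and Setbp1 in 3 of 6 such fits (adjusted p 0.0214 to 0.1).

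The NK receptor genes sit together in the NK gene complex of chromosome 6. Between Klrb1c and Klra9 (chr6:128778485-130194374, GRCm38), bounds chosen after the values were seen, 20 genes were tested. In CD4 cells 3 of them were called, 8 were higher and 1 was lower without overlap, 7 were higher and 0 lower at an unadjusted p under 0.05, and the median log2 fold change was 1.01. Among all autosomal genes in CD4 cells, 0.0643% were called higher, 6.19% were higher and 5.49% lower without overlap, and 2.31% were higher at that p. In CD8 cells none of the 20 was called by edgeR or DESeq2, 1 was higher and 0 lower at an unadjusted p under 0.05, 2 were higher and 1 was lower without overlap, and the median was 0.0743, where 4.48% of all autosomal genes were higher and 4.45% lower without overlap. The bounds make these counts a description. Klrk1 and Klre1 stayed below the threshold in CD4 cells. Klrk1, the gene of the activating receptor NKG2D, had 40.9, 44.0 and 29.5 CPM in uninduced pMT-10 and 11.7, 17.8 and 11.8 CPM in C57BL/6 (log2 1.47, SE 0.33, edgeR adjusted p = 0.129). Klre1, another lectin-like NK receptor, had 14.9, 16.5 and 12.2 CPM in pMT-10 and 2.96, 6.56 and 6.68 CPM in C57BL/6 (log2 1.43, SE 0.33, edgeR adjusted p = 0.158). Klrd1, the gene of CD94, which pairs with the NKG2 chains, averaged 8.03 ± 1.58 CPM in pMT-10 and 4.06 ± 1.64 CPM in C57BL/6 CD4 cells (edgeR adjusted p = 0.323). DESeq2 called Klrk1 and Klre1 too (adjusted p = 0.012 and 0.0215).

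**Figure D3:**
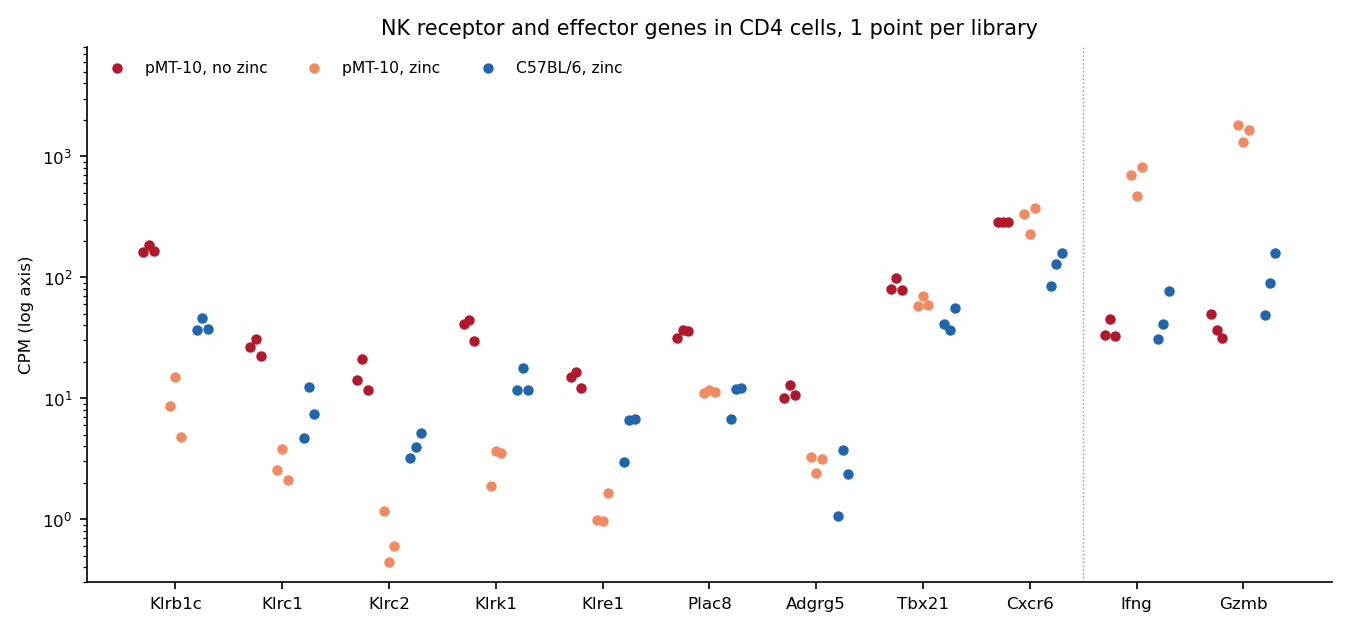
CPM on a log axis of NK receptor genes and of effector genes in CD4 cells, 1 point per library, with uninduced pMT-10, pMT-10 on zinc and C57BL/6 on zinc from left to right within each gene. Left of the dotted line uninduced pMT-10 lies above C57BL/6 without overlap, and right of it, for Ifng and Gzmb, the control groups overlap.

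Genes of type 1 helper and killer cells were split. Of 32 autosomal genes on that list, 31 were tested in CD4 cells, and 2 were called, Klrc1 and Klrc2, both higher, beside 0.0643% called higher among all genes. At an unadjusted p under 0.05, 12 of the 31 were higher and 6 lower, against 2.31% and 2.09% of all autosomal genes. The 12 include Klrc1, Klrc2, Klrk1, Klre1 and Klrd1, genes of the NK gene complex described above. The median log2 fold change of the list was 0.458 in CD4 cells and -0.128 in CD8 cells. The 6 lower genes were Ccl3, Ccl4, Eomes, Gzmb, Gzmk and Prf1. Eomes, a transcription factor, averaged 12.3 ± 4.6 CPM in uninduced pMT-10 and 20.2 ± 8.3 CPM in C57BL/6 CD4 cells, with overlap (log2 fold change -0.71, SE 0.28). Tbx21 and Id2 were on the higher side. Tbx21, the master regulator of type 1 cells, had 79.7, 97.9 and 77.8 CPM in uninduced pMT-10 and 40.8, 36.6 and 55.9 CPM in C57BL/6 CD4 cells (log2 0.94, SE 0.21, edgeR adjusted p = 0.121). In CD8 cells Tbx21 was lower in pMT-10, at 43.4 ± 7.8 CPM against 64.8 ± 20.1 CPM in C57BL/6, with overlap (log2 -0.57, SE 0.21, edgeR adjusted p = 0.584). Id2, a regulator of effector and innate lymphocytes, had 144, 134 and 137 CPM in pMT-10 and 74.9, 79.8 and 94.6 CPM in C57BL/6 CD4 cells (edgeR adjusted p = 0.193). DESeq2 called 6 genes of the list, all higher, among them Tbx21, Id2, Klrk1 and Klre1. Il12rb2, a chain of the IL-12 receptor, had 65.8, 79.3 and 74.5 CPM in pMT-10 and 14.7, 35.0 and 38.8 CPM in C57BL/6 CD4 cells (edgeR adjusted p = 0.474). Cxcr6, a homing receptor of tissue-resident and innate-like T cells, had 284, 284 and 288 CPM in pMT-10 and 84.7, 130 and 159 CPM in C57BL/6 CD4 cells (edgeR adjusted p = 0.376).

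The effector products of the list went both ways, and edgeR called none of those named here. Xcl1, a chemokine of killer and NK cells, was higher without overlap, with 60.1, 65.2 and 53.3 CPM in uninduced pMT-10 and 14.3, 32.1 and 36.3 CPM in C57BL/6 CD4 cells (log2 fold change 1.11, SE 0.38, edgeR adjusted p = 0.814). Ctsw, a cathepsin of killer cells, was higher without overlap too, with 208, 197 and 212 CPM in pMT-10 and 107, 157 and 182 CPM in C57BL/6 CD4 cells (log2 fold change 0.47, SE 0.19, edgeR adjusted p = 1). Ifng, the gene of interferon gamma, had 33.0, 45.4 and 32.6 CPM in uninduced pMT-10 CD4 cells and 30.6, 41.4 and 76.7 CPM in C57BL/6 CD4 cells, overlapping values whose log2 fold change was -0.42, or 0.04 without C57BL/6 CD4 replicate 3. Gzmb, the gene of the protease granzyme B, had 49.4, 36.9 and 31.4 CPM in pMT-10 and 48.3, 90.2 and 159 CPM in C57BL/6 CD4 cells (log2 fold change -1.34, SE 0.44, edgeR adjusted p = 0.794), and its log2 fold change was -0.83 without that replicate. Ccl3, a chemokine of activated killer cells, had 0.84, 3.47 and 0.509 CPM in pMT-10 and 2.20, 6.95 and 20.7 CPM in C57BL/6 CD4 cells, with log2 fold changes of -2.56 and, without that replicate, -1.45. Gzmk, the gene of granzyme K, gave -1.45 with it and -0.32 without it. Ifng changed sign without that replicate, and Gzmk, Ccl3 and Gzmb kept a negative sign.

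Markers of cells that a CD4 gate could also hold were read beside these genes. The list for gamma-delta and innate-like T cells summed to 184 to 207 CPM in uninduced pMT-10, 7.19 to 19.8 CPM in zinc-fed pMT-10 and 44.3 to 56.5 CPM in C57BL/6 CD4 libraries, and Klrb1c, which belongs to it, made up most of that sum. Of its 6 autosomal genes, 4 were tested, 4 had a log2 fold change above 0 and 1, Klrb1c, was called, beside 0.0643% of all autosomal genes called higher. Zbtb16, the gene of PLZF, a transcription factor that defines NKT and other innate-like T cells, had 19.3, 13.8 and 13.4 CPM in uninduced pMT-10, 1.76, 0.709 and 0 CPM in zinc-fed pMT-10, and 2.36, 3.01 and 9.58 CPM in C57BL/6 CD4 cells, without overlap but not called (log2 fold change 1.64, SE 0.91, edgeR adjusted p = 1, or 2.52 without C57BL/6 CD4 replicate 3). The NK list of 12 genes summed to 346 to 429 CPM in uninduced pMT-10 and 139 to 339 CPM in C57BL/6 CD4 libraries. The sums were 139 and 197 CPM in C57BL/6 without replicate 3, and 1490 to 2530 CPM in zinc-fed pMT-10. Klrb1c belongs to this list too, and averaged 171 CPM in uninduced pMT-10 and 39.9 CPM in C57BL/6 CD4 cells. Of 9 tested genes 8 had a log2 fold change above 0. Nkg7 did not, with means of 133 CPM in uninduced pMT-10, 2055 CPM in zinc-fed pMT-10 and 146 CPM in C57BL/6 CD4 cells. Ncr1, the defining NK receptor NKp46, stayed at or below 0.836 CPM in all 6 libraries, with 0, 0.373 and 0.382 CPM in pMT-10. Tyrobp, the adaptor DAP12 of NK and myeloid cells, had 2.91, 4.48 and 1.91 CPM in pMT-10 and 2.36, 2.78 and 1.18 CPM in C57BL/6 CD4 cells, and overlapped (log2 fold change 0.56, SE 0.65). Fcer1g, a further adaptor of NK and myeloid cells, had 6.39, 8.75 and 8.40 CPM in pMT-10 and 2.05, 3.71 and 7.15 CPM in C57BL/6 CD4 cells, and overlapped (log2 fold change 0.87, SE 0.49, or 1.44 without C57BL/6 CD4 replicate 3). Cd8a, the marker of CD8 cells, overlapped too, at 4.13, 0.213 and 0.891 CPM in pMT-10 CD4 cells and 2.28, 10.03 and 2.67 CPM in C57BL/6 CD4 cells. In bulk RNA, more cells of a type and more RNA per cell cannot be told apart, and the part of innate-like T cells in the NK receptor result was not tested.

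In CD8 cells edgeR called no NK receptor gene of the window, but the difference from CD4 cells passed its test for none of them. Klrb1c had 38.7, 17.3 and 24.4 CPM in uninduced pMT-10 and 31.1, 25.3 and 28.0 CPM in C57BL/6 CD8 cells (log2 fold change -0.07, SE 0.40). Adgrg5 had 140, 114 and 146 CPM in pMT-10 and 149, 164 and 133 CPM in C57BL/6 CD8 cells (log2 fold change -0.15, SE 0.20). The difference between the cell types was tested as an interaction, and 1 of 10891 autosomal genes was called (0.00918%), Adgrg5, whose CD8 effect was lower than its CD4 effect by 2.38 on the log2 scale (a difference of -2.38, SE 0.32, edgeR adjusted p = 0.00349). At an unadjusted p under 0.05 there were 447 genes (4.1%), 200 with a higher (1.84%) and 247 with a lower (2.27%) CD8 effect. For Klrb1c the difference was -2.16, with an interval from -3.35 to -0.976. For Plac8 it was -1.46, with an interval from -2.2 to -0.721. Neither passed the adjustment (edgeR adjusted p = 0.718 and 0.416).

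The calls made in CD8 cells alone rested on low counts. Slc4a8, a sodium-driven bicarbonate transporter, had 39, 29 and 79 counts in uninduced pMT-10, 142, 88 and 124 counts in zinc-fed pMT-10, and 6, 8 and 0 counts in C57BL/6 CD8 libraries (log2 fold change 3.02, SE 0.50, edgeR adjusted p = 0.00847). Neb, the gene of nebulin, a giant protein of muscle thin filaments, had 0, 0 and 5 counts in uninduced pMT-10, 59, 63 and 58 counts in zinc-fed pMT-10, and 10, 16 and 14 counts in C57BL/6 CD8 libraries (log2 fold change -3.20, SE 0.59, edgeR adjusted p = 0.0232). Slc4a8 missed the threshold without pMT-10 replicate 3 (adjusted p = 0.0572), and Neb was called in 2 of 6 fits without 1 library (adjusted p 0.00113 to 0.126). In CD4 cells both genes were at higher levels that overlapped between the controls. Slc4a8 averaged 18.01 ± 4.8 CPM in pMT-10 and 17.9 ± 1.5 CPM in C57BL/6 CD4 cells. Neb averaged 20.2 ± 2.4 CPM in pMT-10 and 21.9 ± 3.9 CPM in C57BL/6 CD4 cells. Zfp385a, a zinc finger protein, had 0 counts in uninduced pMT-10 CD8 libraries and 43 pooled counts in C57BL/6 CD8 libraries. It was at least 17.1-fold lower, with a bound of 13.4 to 21.2 without 1 library. DESeq2 called it (adjusted p = 0.0269), but edgeR did not (adjusted p = 0.333). Zinc-fed pMT-10 CD8 libraries held 82 pooled counts of Zfp385a. In CD4 cells its direction was the opposite, with 35 pooled counts in uninduced pMT-10 and 0 in C57BL/6, and the groups overlapped. In CD4 cells Gm38434 had 82 pooled counts in pMT-10 and 0 in C57BL/6, at least 21.3-fold higher, with a bound of 13.1 to 27.2 without 1 library, and was not called (edgeR adjusted p = 0.633).

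Type I interferon-stimulated genes were shifted upward in uninduced pMT-10 cells, mostly by amounts that did not pass the test singly. Type I interferons act through Stat2 and Irf9 on a response element in the promoters of antiviral genes. Of 49 autosomal genes on the list, 46 were tested, and 1 was called, in CD4 cells: Cmpk2, a mitochondrial nucleotide kinase, with 112, 76.8 and 87.0 CPM in uninduced pMT-10, 38.6, 42.9 and 38.1 CPM in zinc-fed pMT-10, and 50.5, 30.9 and 49.0 CPM in C57BL/6 CD4 cells (2.11-fold, log2 1.08, SE 0.22, edgeR adjusted p = 0.0462). Whichever library was left out, Cmpk2 was not called (adjusted p 0.0701 to 0.416). The log2 fold change was above 0 for 44 of the 46 in CD4 and 40 of the 46 in CD8 cells. Genes of this list can rise and fall together within a library, so they are not independent replicates. The counts of list members therefore describe 3 libraries against 3 and do not test the shift. At an unadjusted p under 0.05, 17 were higher and 0 lower in CD4 cells, and 9 higher and 0 lower in CD8 cells, where 2.31% and 3.17% of all autosomal genes were higher and 2.09% and 3.08% lower at that level. The median log2 fold change of the list was 0.381 in CD4 and 0.215 in CD8 cells, beside 0.00259 and 0 over all autosomal genes tested. In CD4 cells 20 of the 46 were higher and 0 lower without overlap, and in CD8 cells 6 were higher and 0 lower, beside 6.19% and 4.48% of all autosomal genes higher without overlap. DESeq2 called 3 of them in CD4 cells (Cmpk2, Oas3 and Lgals3bp) and 1 in CD8 cells (Ifi27l2a), all higher.

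Summed over the list, levels ran from 4200 to 5160 CPM in uninduced pMT-10, 4210 to 4590 CPM in zinc-fed pMT-10 and 3530 to 3940 CPM in C57BL/6 CD4 libraries. In CD8 libraries the sums were 3580 to 4040 CPM in uninduced pMT-10, 4190 to 4690 CPM in zinc-fed pMT-10 and 3190 to 3420 CPM in C57BL/6. By these sums, though not by each gene, both pMT-10 groups lay above C57BL/6 in each cell type. Rtp4, a chaperone of receptor transport induced by interferon, was higher without overlap in both cell types. Rtp4 had 169, 145 and 121 CPM in pMT-10 and 72.3, 95.3 and 88.0 CPM in C57BL/6 CD4 cells, and 125, 127 and 81.7 CPM in pMT-10 and 65.6, 73.2 and 62.0 CPM in C57BL/6 CD8 cells (edgeR adjusted p = 0.373 and 0.414). Irf7, the regulator that amplifies the interferon response, had 140, 132 and 97.5 CPM in pMT-10 and 67.9, 76.1 and 82.6 CPM in C57BL/6 CD4 cells (edgeR adjusted p = 0.243), and it overlapped in CD8 cells. Ifit1, a sensor of viral RNA, averaged 138 ± 33 CPM in pMT-10 and 76.9 ± 3.4 CPM in C57BL/6 CD4 cells, and 63.9 ± 32.2 CPM in pMT-10 and 37.3 ± 7.6 CPM in C57BL/6 CD8 cells. Oas3, an activator of RNase L, averaged 72.1 ± 13.8 CPM in pMT-10 and 37.9 ± 0.69 CPM in C57BL/6 CD4 cells (edgeR adjusted p = 0.158), and 59.6 ± 8.7 CPM in pMT-10 and 59.4 ± 5.0 CPM in C57BL/6 CD8 cells. Ifi27l2a averaged 97.2 ± 17.8 CPM in pMT-10 and 53.9 ± 19.02 CPM in C57BL/6 CD8 cells (edgeR adjusted p = 0.182). Between zinc-fed pMT-10 and C57BL/6 CD4 cells, single genes of the list went both ways. The log2 fold change there was 0.37 for Rtp4, 0.26 for Irf7 and 1.49 for Lgals3bp. It was -0.12 for Cmpk2, -0.10 for Ifit1, -0.17 for Oas3 and -0.67 for Ifi27l2a. Whether the shift of the list is shared by zinc-fed pMT-10 was not tested.

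Promoters of Ifit1 and Oas3 are shown as list members that hold the interferon-stimulated response element, in the same window as above (RefSeq, GRCm38.p6; Ifit1 at chr19:34640639-34640918, plus strand; Oas3 at chr5:120777630-120777909, minus strand). Capitals mark matches to this element, searched on both strands as GAAA, any 2 bases and GAAA again.

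Ifit1: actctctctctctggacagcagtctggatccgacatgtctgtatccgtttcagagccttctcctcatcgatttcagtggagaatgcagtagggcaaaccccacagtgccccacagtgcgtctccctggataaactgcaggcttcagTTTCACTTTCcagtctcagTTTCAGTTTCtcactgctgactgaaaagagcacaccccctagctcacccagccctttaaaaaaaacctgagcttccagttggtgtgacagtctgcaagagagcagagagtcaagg

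Oas3: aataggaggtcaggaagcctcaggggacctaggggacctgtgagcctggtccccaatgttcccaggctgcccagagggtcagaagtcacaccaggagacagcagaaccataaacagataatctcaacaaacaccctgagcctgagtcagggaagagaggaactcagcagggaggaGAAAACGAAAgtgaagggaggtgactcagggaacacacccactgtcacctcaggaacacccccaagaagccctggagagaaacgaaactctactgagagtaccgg

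Of the 49 genes, 36 had a promoter in the table, and 17 of these (47.2%) held a match in at least 1 window, against 3.28% of all 32851 windows. The units differ, since the first share counts genes, some with 2 or 3 windows, and the second counts windows. Cmpk2, the called gene, held none, which says only that these letters are not in that window.

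**Figure D4:**
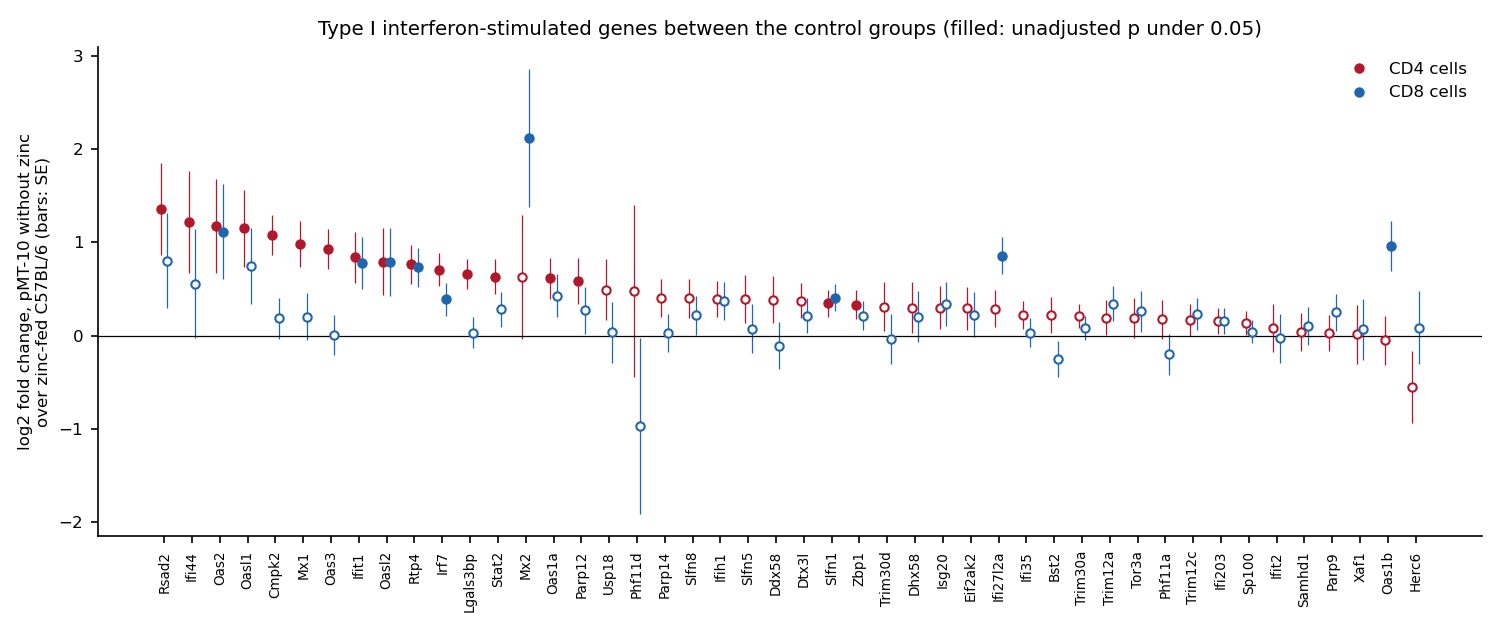
Fitted log2 fold change with its SE for the 46 tested type I interferon-stimulated genes, uninduced pMT-10 over zinc-fed C57BL/6, in CD4 and CD8 cells, ordered by the CD4 value; filled points have an unadjusted p under 0.05. Most points lie above 0, 44 of 46 in CD4 and 40 of 46 in CD8 cells, and only Cmpk2 in CD4 cells passed the adjusted test.

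The interferon gamma response was listed separately, and its difference from the type I list was not tested. None of its 30 tested genes was called by edgeR or by DESeq2, 4 were higher and 0 lower at an unadjusted p under 0.05 in each cell type, beside 2.31% and 3.17% of all autosomal genes higher, and the medians were 0.0846 in CD4 and 0.073 in CD8 cells. Without overlap 5 were higher and 1 lower in CD4 cells, beside 6.19% and 5.49% of all autosomal genes. In CD8 cells 4 were higher and 0 lower without overlap, beside 4.48% and 4.45%. Irgm1, a GTPase of cell-autonomous defence, had 136, 135 and 94.4 CPM in pMT-10 and 83.2, 77.6 and 79.2 CPM in C57BL/6 CD4 cells (log2 0.61, SE 0.16, edgeR adjusted p = 0.323). Irf9, which type I interferons use too, was higher without overlap in both cell types, at 112 ± 12 CPM in pMT-10 and 91.7 ± 8.8 CPM in C57BL/6 CD4 cells, and at 89.8 ± 7.4 CPM in pMT-10 and 71.8 ± 7.4 CPM in C57BL/6 CD8 cells (edgeR adjusted p = 1 and 0.686).

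Of the 19 functional lists, 16 held no called gene in either cell type. Their medians in CD4 cells ran from -0.385 to 0.194, the lowest being that of coinhibitory receptors and exhaustion genes. On that list Tox2, a transcription factor of follicular helper and exhausted T cells, had 13.4, 12.7 and 14.3 CPM in pMT-10 and 34.0, 19.8 and 62.5 CPM in C57BL/6 CD4 cells (log2 -1.52, SE 0.46, edgeR adjusted p = 0.633), or -1.001 without C57BL/6 CD4 replicate 3. Cxcr5 and Sostdc1, 2 genes also known from follicular helper cells and picked after their values were seen, lay lower without overlap. Their list, of helper subsets other than type 1, had 10 of 15 tested genes above 0 in CD4 cells, with a median of 0.194. Cxcr5, their homing receptor, stood at 55.7, 56.2 and 41.9 CPM in pMT-10 and 93.3, 66.6 and 101 CPM in C57BL/6 CD4 cells (edgeR adjusted p = 0.197, DESeq2 0.0267). Sostdc1, a secreted Wnt and BMP antagonist, stood at 2.13, 2.88 and 0.382 CPM in pMT-10 and 29.5, 6.87 and 43.5 CPM in C57BL/6 CD4 cells (edgeR adjusted p = 0.206). Both Cxcr5 and Sostdc1 were highest in C57BL/6 CD4 replicate 3, and their effects without it are not given here. Fos, an immediate early gene that rises when cells are handled or stimulated, had 15.3, 22.9 and 25.5 CPM in pMT-10 and 55.9, 43.8 and 41.2 CPM in C57BL/6 CD4 cells, without overlap (log2 -1.14, SE 0.55, edgeR adjusted p = 1). The list of immediate early and heat shock genes summed to 4980 to 5850 CPM in pMT-10 and 5600 to 7090 CPM in C57BL/6 CD4 cells. The lists of clock and glucocorticoid response genes held no called gene by edgeR or DESeq2. At an unadjusted p under 0.05 the clock list, of 19 tested genes, had 0 in CD4 cells. In CD8 cells it had 1 higher and 2 lower. The glucocorticoid list, of 16 tested genes, had 0 higher and 2 lower in CD4 cells, and 2 higher and 2 lower in CD8 cells. Of all autosomal genes, 2.31% were higher and 2.09% lower at that level in CD4 cells, and 3.17% and 3.08% in CD8 cells. Per1 and Dbp, clock genes, had log2 fold changes of 0.16 and 0.31 in CD4 and -0.21 and 0.10 in CD8 cells, with overlapping groups.

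In CD8 cells 18 functional lists held no called gene, and their medians ran from -0.306 to 0.215. The highest was that of the type I interferon list, which held a called gene in CD4 cells. Izumo1r, the folate receptor 4 of regulatory and anergic T cells, was lower without overlap, at 60.9, 54.2 and 46.3 CPM in pMT-10 and 73.2, 85.0 and 86.4 CPM in C57BL/6 CD8 cells (log2 -0.60, SE 0.13, edgeR adjusted p = 0.125, DESeq2 0.00439). In CD4 cells Izumo1r stood at 644, 605 and 659 CPM in pMT-10 and 834, 758 and 793 CPM in C57BL/6. Slfn2, a guardian of T cell quiescence, was higher in pMT-10 CD8 cells, at 1026, 921 and 821 CPM, against 780, 528 and 605 CPM in C57BL/6 CD8 cells (log2 0.53, SE 0.13, edgeR adjusted p = 0.199, DESeq2 0.0196). In CD4 cells it overlapped. Il2rb, the receptor chain for IL-2 and IL-15, was lower in pMT-10 CD8 cells, at 1027, 918 and 721 CPM, against 1038, 1302 and 1466 CPM in C57BL/6 CD8 cells (log2 -0.51, SE 0.17, edgeR adjusted p = 0.535). On the strain and substrain list, 48 of 63 genes were tested, and Nnt and Ide were the 2 called in each cell type. Of all autosomal genes, 0.0918% were called in CD4 and 0.0551% in CD8 cells. This list too was chosen with earlier results of these data known, so the 2 calls are a description. DESeq2 called Nnt and Ide in each cell type as well, and Naip6, lower, in CD8 cells (adjusted p = 0.0257). H2-Q4, a non-classical class I gene with close relatives on the panel and so of uncertain separate value, averaged 674 ± 75 CPM in pMT-10 and 597 ± 75 CPM in C57BL/6 CD4 cells, and 597 ± 82 CPM in pMT-10 and 432 ± 28 CPM in C57BL/6 CD8 cells, without overlap in CD8 cells but not called (edgeR adjusted p = 1 and 0.445).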

How the data were processed

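CD4 and CD8 T cells were sorted from bone marrow, and their RNA was extracted with the RNeasy Micro kit and read with the Ion AmpliSeq Transcriptome Mouse kit, per the labels' protocols. The authors deposited whole-number counts of reads per amplicon, without normalization, and these counts were used as deposited. The submitters' processing notes name the build mm10; for the aligner and the counter, a name was not given in the sources used here. Gene positions and promoters came from RefSeq (GRCm38.p6, the same build as mm10), and 296 panel genes had no chromosome there and were left out of the autosomal results.

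Groups were taken from the sample labels. All 18 libraries entered 1 fit with 6 group means in edgeR 4.0.16 (R 4.3.3, limma 3.58.1): TMM library sizes, filterByExpr, the robust quasi-likelihood test and Benjamini-Hochberg adjustment over the 11316 genes tested, of which 10891 were autosomal. Single levels of Il10, Mt1, Nnt, Cd4 and Cd8a were compared by exact two-sided permutation tests (scipy 1.17.1), whose smallest p is 0.1. The scripts were tested on simulated data. Counting limits for a gene at 0 use 3 counts over the group and cover counting error only. Alternatives were DESeq2 1.42.0, other library scalings and filters, fits on fewer libraries and leaving out each library.

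Named genes were the called autosomal genes without overlap and with a mean of at least 5 CPM, up to 10 by fold in each direction, plus genes called in both cell types, up to 4 called members of each list, fixed check genes, and genes at 0 in 1 group beside 10 or more counts in each library of the other. Outside this rule, and named after their values were seen, were the called genes below 5 CPM and the list members, NK receptor genes and neighbours that were not called. The comparison, its members and the gene lists were chosen with earlier results of these data known. The labels place the C57BL/6 and the zinc-fed pMT-10 libraries on 1 chip and the uninduced pMT-10 libraries on another. The control groups therefore could not be compared within a chip, while zinc-fed pMT-10 and C57BL/6 could. In that comparison strain, sex and induction of the transgene changed together.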

Additional observations from a re-analysis of the deposited data

Results flagged for a closer look

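Adgrg5 differed more between the control groups in CD4 than in CD8 cells. The interaction test gave a CD8 effect minus a CD4 effect of -2.382 on the log2 scale (edgeR adjusted p = 0.00349), and all 3 uninduced pMT-10 CD4 libraries lay above all 3 C57BL/6 CD4 libraries, while the CD8 groups overlapped.

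Xist, which no comparison of autosomal genes used, stood at 40.1 CPM in C57BL/6 CD4 replicate 3, above the other C57BL/6 libraries and below every uninduced pMT-10 library. The source of these reads was not tested.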

How the results depend on the processing

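No paired analysis was possible because the labels give no replicate numbers that the groups share. The main fit called 10 autosomal genes in CD4 cells, 6 in CD8 cells, 3 in both and 1 in the interaction. Without the filter on low counts these became 77, 98, 12 and 68. DESeq2 called 26 in CD4 cells, 35 in CD8 cells and 8 in the interaction. With only the 6 libraries of the control groups of a cell type there were 18 calls in CD4 and 3 in CD8 cells, with the 9 libraries of a cell type 3 in CD8 cells, and with the 12 control libraries 2 in the interaction. Leaving out 1 library gave 3 to 7 calls in CD4 cells, 3 to 8 in CD8 cells, 1 to 2 in the interaction and 1 to 3 in both cell types. In CD4 cells the count was 5 without C57BL/6 replicate 1 or 2, 3 without C57BL/6 replicate 3, and 3 without pMT-10 replicate 1 or 2. In CD8 cells it was 3 without C57BL/6 replicate 3. Adgrg5, Ide and Plac8 in CD4 cells and Ide and Rell1 in CD8 cells were called in all 6 such fits, and Klrb1c, Cmpk2 and Rell1 in CD4 cells in 0. No called gene changed direction under any alternative run. Why the counts moved was not tested. The median of the interferon list ran from 0.28 to 0.486 in CD4 and from 0.187 to 0.298 in CD8 cells. With 3 libraries a group, depth limits the genes at 0 to statements of at most 0.0676 and 0.0804 CPM in pooled CD8 libraries.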
